A study of Mus musculus with 3 samples.

Results

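Collagens were described here gene by gene. All 44 genes whose symbol reads Col, a number, a and a number were taken, out of 29625 genes in the tables of the 3 libraries. All 44 were listed in Ctrl, 44 in Mid_Ob and 42 in Ob, where Col2a1 and Col9a2 had no entry. No listed gene of any library had a count of 0, so a missing entry was read as 0 counts. The libraries hold nuclei from the epididymal fat of male C57BL/6J mice bought at 5 weeks of age and kept for 1 week before feeding. Ctrl mice ate an ordinary diet. The other mice were fed 60% fat chow until their weight passed the Ctrl mean by 10% for Mid_Ob or by 20% for Ob. The fat of 8 mice was mixed into 1 tube per stage and read as 1 library of 10x Genomics nuclei, so there is no replicate, no test between stages was made and no p-value is given. The 95% intervals printed after ratios and shares reflect counting error alone.

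A collagen molecule is a triple helix of 3 chains, and each gene of this list encodes 1 chain. Fibrillar collagens build the fibres that stiffen fat in fibrosis, type IV collagens form the sheet of the basement membrane that wraps each fat cell and vessel, and type VI collagen forms beaded filaments around fat cells. Fibril-associated collagens (FACIT) decorate the fibres, multiplexins sit at the edge of basement membranes, and transmembrane collagens stay on the cell surface.

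The type IV genes lie as 3 head-to-head pairs, and the stretch between the starts of a pair is shared by both genes. One RefSeq promoter window (250 bases before to 50 after the start, GRCm38.p6) is shown for each pair, since the levels of the pairs are compared below. The Col4a1 window is chr8:11312777-11313076 on the minus strand, and the Col4a2 start at 11312805 lies inside it. The Col4a4 window is chr1:82586800-82587099 on the minus strand. The Col4a5 window is chrX:141475169-141475468 on the plus strand. The Col4a6 start at 141474076 lies outside it, and the Col4a6 window, not shown, shares 0 bases with it. That window held 1 GC box and no CCAAT box. Capitals mark a GC box (GGGCGG or CCGCCC) or a CCAAT box (CCAAT or ATTGG).
Col4a1: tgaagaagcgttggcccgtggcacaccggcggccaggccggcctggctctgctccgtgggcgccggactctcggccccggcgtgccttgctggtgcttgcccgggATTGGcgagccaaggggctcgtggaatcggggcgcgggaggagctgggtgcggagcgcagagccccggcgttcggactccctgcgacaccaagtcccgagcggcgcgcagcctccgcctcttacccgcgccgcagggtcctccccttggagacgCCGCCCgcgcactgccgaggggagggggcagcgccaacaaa
Col4a4: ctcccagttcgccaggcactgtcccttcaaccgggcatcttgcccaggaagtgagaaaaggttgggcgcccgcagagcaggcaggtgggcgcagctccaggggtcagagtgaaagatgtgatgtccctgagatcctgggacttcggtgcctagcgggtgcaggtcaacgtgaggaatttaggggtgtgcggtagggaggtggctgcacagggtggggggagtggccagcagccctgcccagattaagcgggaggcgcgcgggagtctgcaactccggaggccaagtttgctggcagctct
Col4a5: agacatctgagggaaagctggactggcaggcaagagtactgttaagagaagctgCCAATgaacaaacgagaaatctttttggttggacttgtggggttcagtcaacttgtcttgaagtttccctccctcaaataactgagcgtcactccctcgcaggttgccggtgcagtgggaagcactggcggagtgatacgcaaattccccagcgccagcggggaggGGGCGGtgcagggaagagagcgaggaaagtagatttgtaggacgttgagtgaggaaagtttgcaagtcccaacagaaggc
The Col4a1 window held 1 match to each box, the Col4a5 window also held 1 match to each, and the Col4a4 window held none. Of 32851 RefSeq windows of this length, 35.7% held a GC box, 37.4% a CCAAT box and 13.6% a TATA box (TATAAA, either strand). Windows were found for 35 of the 44 chains, 38 windows in all, of which 23 held a GC box, 13 a CCAAT box and 5 a TATA box. The GC content of the windows was 74% for Col4a1, 63.3% for Col4a4 and 52.7% for Col4a5. A match is a run of letters, not a site in use.

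The libraries held 53980929 (Ctrl), 57665213 (Mid_Ob) and 111595518 (Ob) UMIs (single transcript molecules) in 14, 11 and 21 clusters of nuclei. Clusters were given a class from marker genes that include no collagen. Ctrl and Mid_Ob held clusters of testis or epididymis and Ob held none. In Ctrl, clusters named after testis germ cells took 26.3%, testis somatic cells 15.4% and epididymal epithelium 5.32% of the UMIs. In Mid_Ob, epididymal epithelium-like clusters took 30.3%. A level over a whole library therefore mixes what a cell class holds with how much of the library that class fills. Fewer cells of a type and less RNA per cell cannot be told apart. Levels are given as CPM, the UMIs of a gene per 1000000 UMIs of the library, class or cluster named.

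Collagen transcripts were a small share of the RNA and the share was higher at each later stage. The 44 chains held 0.245% (0.243 to 0.246) of the Ctrl UMIs, 0.263% (0.262 to 0.265) of the Mid_Ob UMIs and 0.341% (0.339 to 0.342) of the Ob UMIs. Without the testis and epididymis clusters the shares were 0.312%, 0.335% and 0.341%, so most of the difference between Ctrl and Ob was not seen there. A few chains held most of the counts. The 5 most counted chains held 42.2% of the Ctrl collagen UMIs, against 54.9% for Mid_Ob and 60.9% for Ob.

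Levels of different chains were compared per kb of gene span, a scale chosen on the view that nuclear RNA is mostly unspliced. Whether intron reads were counted is not given in the sources used here. On this scale Col3a1 had the highest level of the 44, with a mean of 10.1 CPM per kb over the libraries. Col5a3 followed with 6.44, Col6a1 with 4.19, Col1a1 with 4.07, Col1a2 with 3.28 and Col4a1 with 3.04 CPM per kb. Per kb of the longest transcript Col3a1 again came first, with 69.4 CPM per kb, followed by Col4a1 with 52.5 and Col5a3 with 47.4. The choice of length moved Col1a1 from rank 4 to rank 12. The genes Col3a1 and Col5a2 lie tail to tail on chromosome 1, and Col6a1 and Col6a2 lie on one strand of chromosome 10.

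**Figure D1:**
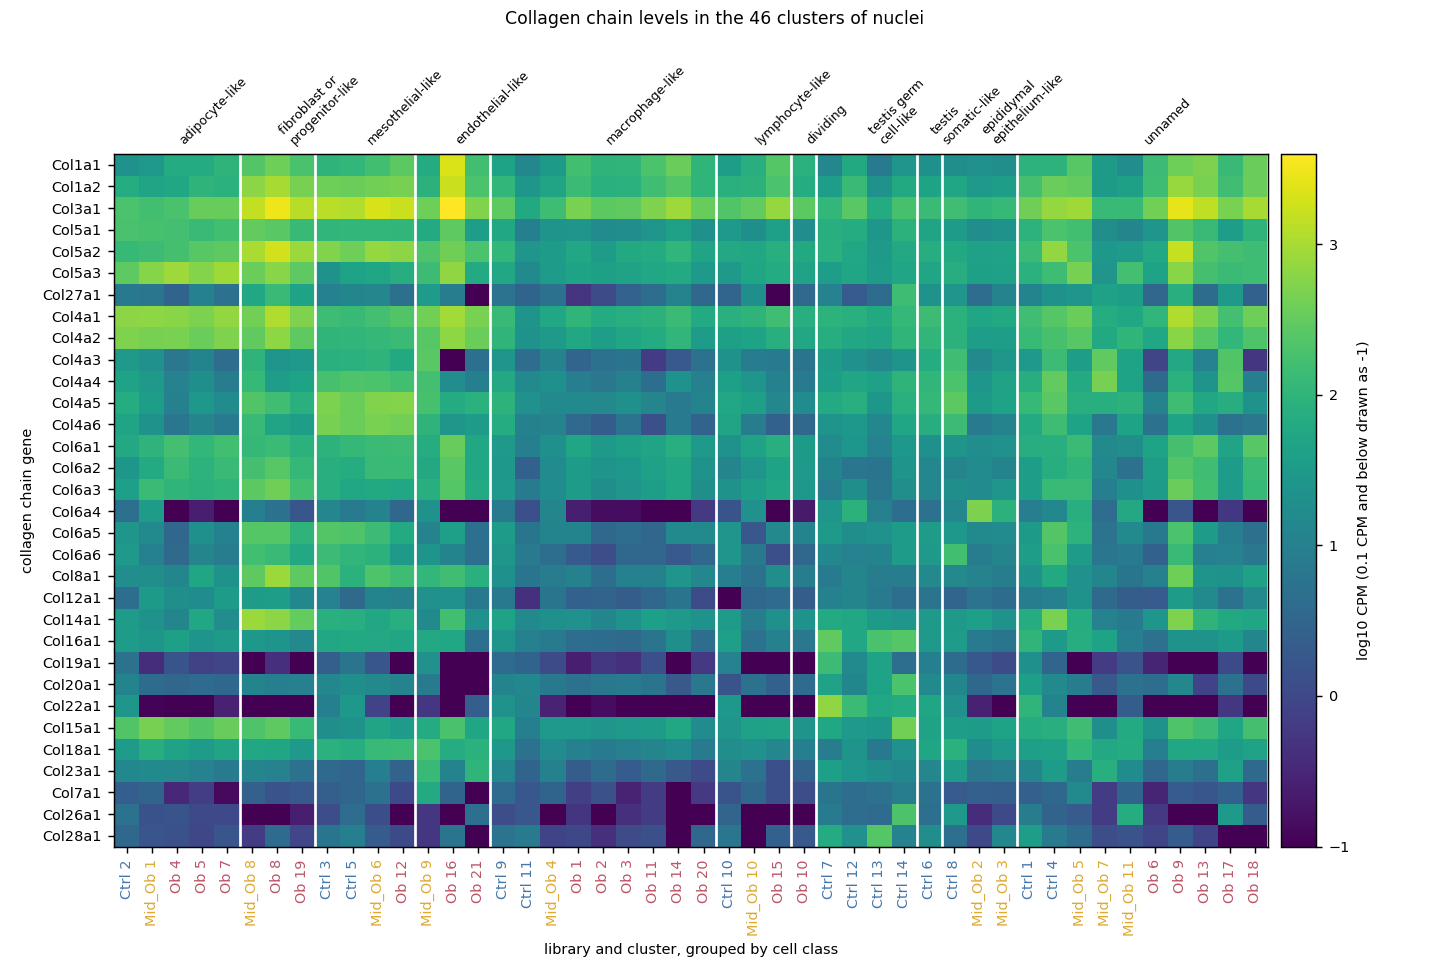
Levels of 32 collagen chains (rows, ordered by family) in the 46 clusters (columns, grouped by cell class and coloured by library), as log10 CPM. Fibroblast, mesothelial and adipocyte clusters share some bright rows. Col3a1 is bright in fibroblast and mesothelial clusters, and Col4a1 in adipocyte and fibroblast clusters. Col3a1 reaches 4079 CPM in Ob cluster 16, and Col22a1 and Col6a4 are bright in the testis and epididymis columns.

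Collagen levels differed between cell classes. The share of collagen in all UMIs of a class ran from 0.0679% in the macrophage-like cluster of Mid_Ob to 0.92% in the fibroblast or progenitor-like clusters of Ob. In every library the adipocyte-like clusters held the most collagen counts of any class. They held 29.5% of the Ctrl collagen counts, 60.6% of those of Mid_Ob and 54.5% of those of Ob. They also filled 25.2%, 46.9% and 55.4% of all UMIs of these libraries. In Ob their collagen share was 0.335%, against 0.341% for the whole library. The fibroblast or progenitor-like clusters filled 2.67% of the UMIs of Mid_Ob but held 8.01% of its collagen, and filled 7.97% of Ob but held 21.5% of its collagen. Ctrl had no cluster of this class. Its cluster 4, left unnamed since it held markers of fibroblasts and of endothelium, showed a collagen share of 0.512%.

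Adipocyte-like clusters were bright for the basement membrane chains Col4a1 and Col4a2, for Col5a3, which joins the fibrillar type V molecule, and for Col15a1, a multiplexin. Col4a1 stood at 620 CPM in the adipocyte-like cluster of Ctrl and at 652 in that of Mid_Ob. In Ob it stood at 597, 483 and 727 CPM in clusters 4, 5 and 7. The other clusters of Ctrl lay at 248 CPM or below, so in Ctrl 64.7% of all Col4a1 counts lay in the adipocyte-like cluster. In Ob the Col4a1 level was higher in fibroblast or progenitor-like cluster 8, at 1120 CPM, than in any adipocyte-like cluster. Col4a2 was also highest in cluster 8 of Ob, at 652 CPM. Col5a3 stood at 842, 558 and 884 CPM in clusters 4, 5 and 7 and at 602 CPM in cluster 8. Col15a1 stood at 310, 229 and 346 CPM in clusters 4, 5 and 7 and at 292 CPM in cluster 8.

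Fibroblast or progenitor-like clusters were bright for Col3a1 and Col5a2 and for Col14a1, a FACIT that binds fibres. Col3a1, the chain of type III collagen, stood at 1493 CPM in cluster 8 of Mid_Ob and at 3047 and 1288 CPM in clusters 8 and 19 of Ob. Col5a2, a type V chain, stood at 1043 CPM in Mid_Ob and at 1920 and 800 CPM in the clusters of Ob. Neither chain was particular to this class. Mesothelial-like clusters showed 538 and 377 CPM of Col5a2 in Ctrl, 756 in Mid_Ob and 635 in Ob. In Mid_Ob Col3a1 was higher in mesothelial-like cluster 6, at 2095 CPM. Col14a1 stood at 824 CPM in Mid_Ob and at 634 and 324 CPM in Ob, and the highest level in any other named class was 161 CPM, in cluster 16 of Ob. Cluster 9 of Ob, left unnamed, held all 12 fibroblast markers beside pericyte markers and showed 2655 CPM of Col3a1 and 518 CPM of Col14a1.

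Mesothelial-like clusters, the lining cells of the fat pad, joined Col3a1 with the X-linked basement membrane pair Col4a5 and Col4a6. Col4a5 stood at 486 and 372 CPM in clusters 3 and 5 of Ctrl, at 527 CPM in cluster 6 of Mid_Ob and at 551 CPM in cluster 12 of Ob. Col4a6 stood at 458, 367, 475 and 419 CPM in the same clusters. The highest Col4a6 level in any other cluster was 151 CPM, in cluster 4 of Ctrl. The groups of clusters did not overlap for either gene. Col3a1 stood between 1159 and 2095 CPM in the mesothelial-like clusters.

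The clusters classed as endothelial-like differed among themselves, and cluster 16 of Ob held markers of several cell types. Cluster 9 of Mid_Ob showed 412 CPM of Col4a1, 262 of Col4a3, 200 of Col18a1, the source of endostatin, 124 of the transmembrane chain Col23a1 and 64.5 of Col7a1, the chain of anchoring fibrils. Cluster 21 of Ob showed 470 CPM of Col4a1, 104 of Col23a1 and 4.74 of Col4a3. Cluster 16 of Ob held the largest collagen share of all 46 clusters, 1.27%, with 4079 CPM of Col3a1, 2198 of Col1a1 and 1693 of Col1a2. This cluster was the smallest of Ob with 334383 UMIs, and it carried 8843 CPM of adipocyte markers, 5359 CPM of fibroblast markers and 1% haemoglobin beside its 1797 CPM of endothelial markers. In this cluster 12 of 13 adipocyte markers and 9 of 12 fibroblast markers were over 2-fold the median of the other clusters. Its class name is therefore uncertain, and the part of other cells in its collagen was not tested.

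Several rarer chains were highest in clusters named after testis or epididymis, in libraries where such tissue was present. Col22a1, a FACIT of tissue junctions, stood at 676 CPM in germ cell-like cluster 7 of Ctrl, where Col19a1, another FACIT, stood at 142 CPM. Col28a1, a chain related to type VI collagen, stood at 249 CPM in germ cell-like cluster 13. Germ cell-like cluster 14 of Ctrl showed 411 CPM of Col15a1, 210.1 of Col26a1, 200.9 of Col20a1, 150 of Col27a1, 125 of Col9a3 and 117 of the transmembrane chain Col25a1. Col6a4, a type VI chain, stood at 491 CPM in epididymal cluster 2 of Mid_Ob and at 89.8 CPM in cluster 3. Of the 43 chains of Ctrl with at least 50 UMIs, 18 had their highest cluster among the 4 germ cell-like clusters, against 46.4% of all genes at that count, 9 among the mesothelial-like, against 7.08%, and 3 in the adipocyte-like, against 5.18%.

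Mid_Ob was first compared with Ctrl over whole libraries, which differ in stage, diet and mix of tissues at once. The parts of these in a ratio cannot be told apart. A chain was called higher or lower past 1.5-fold with at least 50 UMIs in the pair. Of 43 chains with enough counts 11 were higher, against 17.3% of all genes, and 19 were lower, against 35.5% of all genes. The median log2 ratio was -0.39 for the chains and -0.16 for all genes. Both multiplexins and 4 of the 6 type VI chains were higher. Col15a1 stood at 95.6 CPM in Ctrl and 238 in Mid_Ob, 2.49-fold higher (2.41 to 2.57). Col6a3 stood at 32.3 CPM in Ctrl and 85.4 in Mid_Ob, 2.65-fold higher (2.51 to 2.80). Col5a3 went from 109 to 315 CPM, 2.90-fold higher (2.82 to 2.99). These 3 stayed past 1.5-fold without the testis and epididymis clusters, at 2.52-fold, 2.23-fold and 2.63-fold.

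Col6a4 showed the largest ratio of the higher chains, with 9.78 CPM in Ctrl and 101 in Mid_Ob, 10.3-fold (9.44 to 11.3), and 4.03-fold without testis and epididymis clusters. Set against epididymal RNA in Mid_Ob, it was 2.58% and 0.801% of the summed epididymal markers in epididymal clusters 2 and 3, and between 0.488% and 2.37% in the other 9 clusters, and the part of such RNA was not tested. Col22a1 stood at 87.3 CPM in Ctrl and 0.225 in Mid_Ob, 387-fold lower (226 to 728), and Mid_Ob held no testis cluster. It still stood at 27.2 CPM in the adipocyte-like cluster of Ctrl, where the summed germ cell markers stood at 707 CPM, against 5974 CPM in germ cell-like cluster 7. Col2a1, Col9a1, Col11a2, Col13a1 and Col22a1 passed the count filter through Ctrl alone, with 2, 14, 45, 39 and 13 UMIs in Mid_Ob. Without the testis and epididymis clusters 11 chains were higher and 15 lower, with 9 and 13 chains shared with the whole-library calls. The higher chains lost there were Col6a1, at 1.39-fold, and Col4a1, at 1.35-fold. Col1a2 and Col14a1 were among the lower ones there, at 1.67-fold and 1.61-fold.

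**Figure D2:**
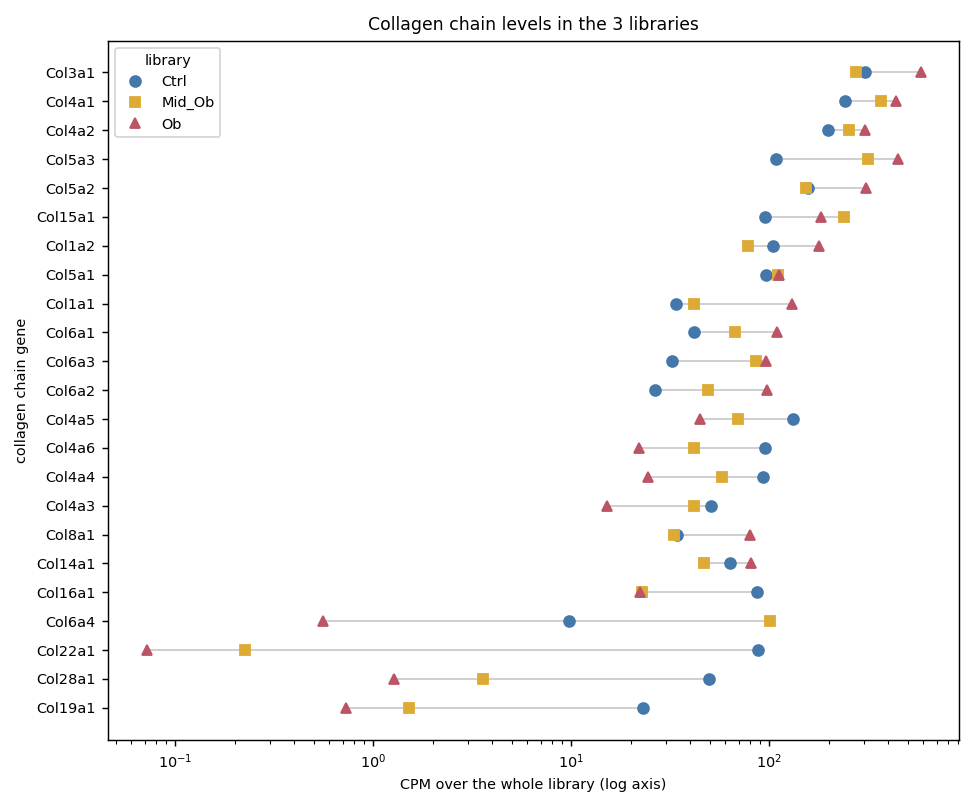
CPM of 23 collagen chains over each whole library, on a log axis, with 1 point per library and a grey line from the lowest to the highest. Col3a1 lies at 304, 274 and 582 CPM in Ctrl, Mid_Ob and Ob, the chains Col4a3 to Col4a6 are lower at each later stage, and Col22a1 spans from 0.0717 to 87.3 CPM.

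Comparing Ob with Mid_Ob follows the chains at the later stage. Of 40 chains with enough counts 8 were higher, against 17.5% of all genes, and 18 were lower, against 27.3% of all genes. The median log2 ratio was -0.36 for the chains and -0.09 for all genes. Of the 10 fibrillar chains 4 were higher (Col1a1, Col1a2, Col3a1 and Col5a2) and 2 lower (Col11a1 and Col24a1). Col1a1 stood at 33.8 CPM in Ctrl, 41.7 CPM for Mid_Ob and 130 CPM for Ob, and was 3.12-fold higher (2.98 to 3.25) in Ob than in Mid_Ob. Its partner in type I collagen, Col1a2, stood at 105, 78.1 and 178 CPM and was 2.28-fold higher (2.21 to 2.36). Col3a1 stood at 304, 274 and 582 CPM and was 2.12-fold higher (2.09 to 2.16). All 3 were highest in Ob, and Col1a2 and Col3a1 were lowest in Mid_Ob. Col8a1, a chain of short-chain networks, stood at 34.2, 33.0 and 79.5 CPM and was 2.41-fold higher (2.29 to 2.53).

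The minor type IV chains went the other way. Col4a3 stood at 50.9, 41.6 and 15.1 CPM, Col4a4 at 92.5, 57.7 and 24.4, Col4a5 at 131, 69.1 and 44.8, and Col4a6 at 95, 41.5 and 21.9 CPM in Ctrl, Mid_Ob and Ob. All 4 were lower in Ob than in Mid_Ob, between 1.54-fold for Col4a5 and 2.76-fold for Col4a3. Beside them, the main pair did not pass 1.5-fold, with Col4a1 at 365 and 435 CPM and Col4a2 at 254 and 304 CPM. The share of Ob filled by mesothelial-like clusters, where Col4a5 and Col4a6 were highest, was 2.48% of the UMIs, against 4.05% in Mid_Ob and 10.4% in Ctrl. All 4 transmembrane chains were also lower, among them Col17a1 at 2.79 and 0.341 CPM and Col23a1 at 17.4 and 9.46 CPM. Of the lower chains, Col17a1 and the fibrillar Col11a1 passed the count filter through Mid_Ob, where they were high. They had 161 and 126 UMIs in Mid_Ob and 38 and 10 in Ob. Col13a1, with 39 and 32 UMIs, passed only as a sum. Col6a4, at 101 CPM in Mid_Ob and 0.556 in Ob, was 182-fold lower (141 to 237), and Ob held no epididymal cluster. Without the testis and epididymis clusters 6 chains were higher and 18 lower. The higher chains Col14a1 and Col6a1 were the ones lost, at 1.496-fold and 1.24-fold.

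Between Ob and Ctrl 13 of 43 chains were higher, against 18.1% of all genes, and 25 were lower, against 43.5% of all genes. The median log2 ratio was -1.56 for the chains and -0.35 for all genes. Both values and the count of lower chains include chains that passed the count filter through Ctrl, where they were high. Col2a1, Col9a1, Col11a1 and Col22a1 had 280, 195, 339 and 4711 UMIs in Ctrl and 0, 8, 10 and 8 in Ob. The same held for Col13a1, with 156 and 32 UMIs, and for Col17a1, with 88 and 38. Among the higher ones Col5a3 was 4.10-fold higher (4 to 4.22) and Col1a1 3.84-fold (3.66 to 4.04). The 3 main type VI chains, which assemble into 1 molecule, were higher by 2.61-fold for Col6a1, 3.67-fold for Col6a2 and 2.97-fold for Col6a3. Col2a1, the cartilage chain, had 280 UMIs in Ctrl and none in Ob, at least 193-fold lower with 3 counts in place of 0. Of its Ctrl counts 29 lay outside the testis and epididymis clusters, too few for a call, and Col9a1 had too few as well. Col23a1, with 1056 UMIs in Ob, had enough counts there but no longer passed 1.5-fold. Without the testis and epididymis clusters 7 chains were higher in place of 13. Col1a1 was then 2.63-fold higher, Col5a3 2.71-fold and Col6a2 2.42-fold. Col3a1 then stood at 1.24-fold, Col4a1 at 1.18-fold, Col4a2 at 1.01-fold, Col5a2 at 1.26-fold, Col1a2 at 1.1-fold, Col15a1 at 1.43-fold and Col8a1 at 1.45-fold. These 7 chains were called higher only with the testis and epididymis clusters left in the total of Ctrl.

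By family, the 11 fibrillar chains together held 839, 987 and 1770 CPM at the successive stages, and their share of the collagen UMIs was 34.3%, 37.5% and 52.0%. The 6 type IV chains held 810, 829 and 846 CPM. The 6 type VI chains held 219, 348 and 350 CPM. The 9 FACIT chains held 304, 97.6 and 126 CPM, and the 4 transmembrane chains held 37.4, 23.3 and 11.4 CPM. Over whole libraries the total of type IV chains moved little while its members moved in opposite directions. All these sums include the testis and epididymis clusters of Ctrl and Mid_Ob. Of the FACIT chains, Col22a1 and Col16a1 held 87.3 and 86.3 CPM in Ctrl and were highest in germ cell-like cluster 7. Col14a1 held 63.4 CPM and was highest in unnamed cluster 4. The part of the tissue mix in the family sums was not tested.

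Within the adipocyte-like clusters the comparison is freer of the mix of cells, though not of RNA from other cells. Mid_Ob held 1 such cluster and Ctrl held 1. Of 38 chains with enough counts 9 were higher in Mid_Ob, against 15.3% of all genes, and 13 were lower, against 20.2% of all genes. In log2, the median ratio was -0.17 for the chains and -0.08 for all genes. Of the 6 type VI chains 4 were higher and 2 lower, of the 6 type IV chains none was higher and 2 were lower, and both multiplexins were higher. Col6a3 stood at 39.5 CPM in Ctrl and 135 in Mid_Ob, 3.42-fold higher (3.12 to 3.75). Col6a2 stood at 27.5 and 64.5 CPM, 2.34-fold (2.10 to 2.63), and Col6a1 at 60.8 and 100 CPM, 1.65-fold (1.52 to 1.78). The lower type VI chains were Col6a5, at 24.8 and 15.7 CPM, and Col6a6, at 29.4 and 10.5 CPM. Col5a3 stood at 283 and 587 CPM, 2.08-fold (2 to 2.15), Col15a1 at 225 and 448 CPM, 1.99-fold (1.92 to 2.08), and Col18a1 at 33.8 and 74.0 CPM, 2.19-fold (1.98 to 2.43). Col12a1, a FACIT of tissues under tension, stood at 4.62 and 32.3 CPM, 6.98-fold (5.40 to 9.16).

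The main type IV pair did not pass 1.5-fold in these clusters, with Col4a1 1.05-fold higher (1.02 to 1.08) and Col4a2 1.14-fold lower (1.11 to 1.18). Among the lower chains, Col4a5 stood at 70.8 and 37.7 CPM and Col4a6 at 48.4 and 22.1 CPM. In the same 2 clusters the summed mesothelial markers stood at 501 and 226 CPM. Of the other lower chains, Col22a1, Col19a1, Col20a1, Col25a1, Col26a1, Col9a3 and Col28a1 were ones with their highest Ctrl cluster among germ cells, and the summed germ cell markers stood at 707 and 109 CPM. Col6a4 was 7.09-fold higher (5.50 to 9.28), beside epididymal markers at 22.7 CPM in Ctrl and 1962 CPM in Mid_Ob. The part of such RNA in these ratios was not tested. Of the lower chains, Col22a1, Col11a1, Col19a1, Col25a1 and Col26a1 passed the count filter through Ctrl, where they were high. They had 371, 141, 72, 77 and 74 UMIs in Ctrl and 3, 9, 11, 31 and 39 in Mid_Ob. Of the other marker sums, those of macrophages, fibroblasts and endothelium stood at 0.605, 0.719 and 0.752 of the Ctrl level, and those of pericytes or smooth muscle and of lymphocytes at 1.27 and 1.52.

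**Figure D3:**
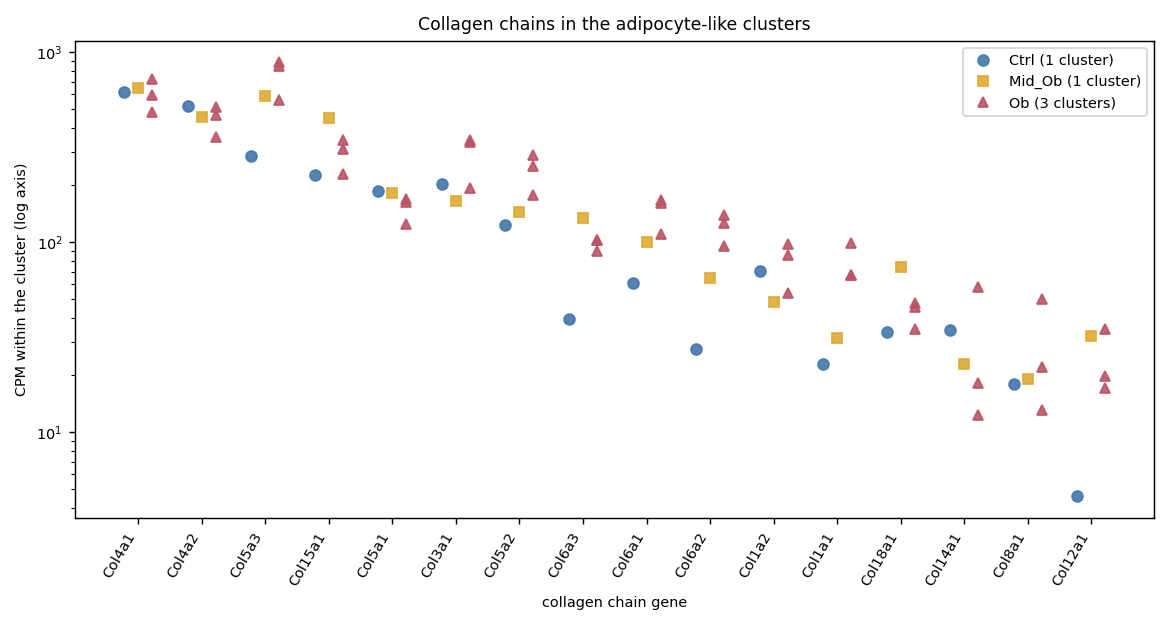
CPM of 16 collagen chains within each adipocyte-like cluster, on a log axis, with 1 point per cluster (1 in Ctrl, 1 in Mid_Ob, 3 in Ob). Col5a3 lies at 283 in Ctrl, 587 in Mid_Ob and 558 to 884 CPM in Ob, while Col4a1 overlaps between the stages.

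Ob held 3 adipocyte-like clusters, and they differed. Of 37 chains with enough counts 8 were higher in Ob than in Mid_Ob, against 15.3% of all genes, and 13 were lower, against 19% of all genes. The median log2 ratio was -0.26 for the chains and -0.03 for all genes. Of the lower chains, Col6a4, Col7a1 and Col17a1 passed the count filter through Mid_Ob, with 900, 81 and 58 UMIs there. Within the Ob class, cluster 5 held the most of their UMIs, at 9, 25 and 11. Col1a1 stood at 31.2 CPM in Mid_Ob and at 67.0, 67.6 and 99.6 CPM in clusters 4, 5 and 7 of Ob, and was 2.29-fold higher (2.13 to 2.47) over the class. Col6a2 stood at 64.5 CPM in Mid_Ob and at 139, 95.4 and 126 CPM in Ob, 1.73-fold higher (1.64 to 1.83). For these 2 chains every Ob cluster lay above Mid_Ob, and the same held for others, among them Col3a1, Col1a2, Col5a2 and Col6a1. The share of all genes with this order was not counted. Col3a1 stood at 165 CPM in Mid_Ob and at 193, 346 and 336 CPM in Ob, 1.82-fold higher (1.77 to 1.89). Col15a1 stood at 448 CPM in Mid_Ob and at 310, 229 and 346 CPM in Ob, 1.68-fold lower (1.64 to 1.72), and Col18a1 was 1.88-fold lower (1.77 to 1.99).

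Ob cluster 5, the largest of the library, set many of these calls. Without it Col15a1 was 1.4-fold lower and lost its call, as did Col12a1 and Col24a1, and 3 chains were higher in place of 8, Col1a1, Col6a2 and Col6a1, and 14 were lower in place of 13, of which 10 were shared. Col3a1 was then 0.52 higher on the log2 scale, Col5a2 0.53 and Col1a2 0.39, each under 1.5-fold. Col14a1 turned from 0.82 to -0.70 and Col8a1 from 0.91 to -0.27 on the log2 scale. Col14a1 stood at 58.4 CPM in cluster 5 and at 12.3 and 18.2 CPM in clusters 4 and 7. The summed macrophage markers stood at 2688 CPM in cluster 5 and at 579 and 598 CPM in clusters 4 and 7, while the fibroblast markers stood at 3580, 3250 and 3760 CPM. The part of other cells in cluster 5 was not tested.

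The fibroblast or progenitor-like class could be compared between Ob and Mid_Ob. Of 26 chains with enough counts 4 were higher in Ob, against 18.6% of all genes, and 7 were lower, against 13.4% of all genes. In log2, the median ratio was -0.15 for the chains and 0.04 for all genes. Col4a1 stood at 425 CPM in Mid_Ob and 834 in Ob, 1.96-fold higher (1.81 to 2.13), and Col8a1 at 288 and 563 CPM, 1.96-fold (1.78 to 2.16). Col27a1, a fibrillar chain of cartilage, was 1.56-fold higher (1.25 to 1.96). The 4 minor type IV chains were lower, Col4a3 by 3.52-fold (2.85 to 4.32) and Col4a6 by 2.96-fold (2.47 to 3.52). Col14a1 was 1.69-fold lower (1.58 to 1.80). Col3a1 was 1.49-fold higher (1.43 to 1.56), just under the limit, and Col1a1 1.25-fold (1.12 to 1.4). Unnamed cluster 9 of Ob, with 12756 CPM of fibroblast markers, was left out of the class. It showed 2655 CPM of Col3a1, against 1493 in the Mid_Ob cluster. Ratios with cluster 9 included were not computed, so calls near the limit depend on this choice.

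The 2 Ob clusters of this class decided the count. Without cluster 8 no chain was higher and 14 were lower. Without cluster 19, 9 chains were higher, Col3a1, Col1a1, Col1a2, Col5a2 and Col5a3 now among them, and 3 were lower. Col4a3, Col4a4 and Col4a6 were lower in each case. Cluster 19 showed 1288 CPM of Col3a1 and carried 4029 CPM of macrophage markers and 6927 CPM of fibroblast markers, where cluster 8 showed 577 and 13611 CPM. The macrophage markers of the Mid_Ob cluster stood at 553 CPM.

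Macrophage-like clusters held little collagen, 0.101% of their UMIs in Ctrl, 0.0679% for Mid_Ob and 0.106% for Ob. Of 26 chains with enough counts 1, Col6a4, was higher in Mid_Ob than in Ctrl, against 8.71% of all genes, and 12 were lower, against 14.8% of all genes. In log2, the median ratio was -0.52 for the chains and 0.0049 for all genes. This pair rested on cluster 9 of Ctrl. That cluster had a collagen share of 0.157%, against 0.0393% in cluster 11, and it carried 3563 CPM of adipocyte markers and 693 CPM of mesothelial markers, against 1253 and 177 CPM in cluster 11. Without cluster 9, 13 chains were higher in Mid_Ob and 1 was lower, and without cluster 11, 22 were lower. Some of the 12 lower chains, among them Col4a6, Col6a5 and Col6a6, passed the count filter through Ctrl. These had 203, 99 and 86 UMIs in Ctrl and 41, 43 and 16 in Mid_Ob.

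Of 28 chains with enough counts in the macrophage-like clusters of Ob and Mid_Ob 8 were higher in Ob, against 13.1% of all genes, and 11 were lower, against 18.4% of all genes. In log2, the median ratio was -0.02 for the chains and -0.06 for all genes. The 3 with the largest ratios were fibrillar. Col1a1 stood at 30.6 CPM in Ctrl, 31.8 in Mid_Ob and 124 in Ob, 3.89-fold higher (3.22 to 4.74) in Ob than in Mid_Ob. Col3a1 stood at 180, 151 and 354 CPM, 2.35-fold higher (2.15 to 2.57), and Col1a2 at 70.6, 48.8 and 104 CPM, 2.14-fold higher (1.83 to 2.51). The 6 Ob clusters lay between 98.3 and 352 CPM for Col1a1, all above Mid_Ob. The fibroblast marker sum of these clusters was lower in Ob, at 0.799 of the Mid_Ob level, and the adipocyte sum was 1.21 of it. The part of adipocyte RNA in these ratios was not tested.

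Type I collagen is built from Col1a1 and Col1a2 chains, and the ratio of their UMIs differed between clusters and stages. In Ctrl it lay between 0.255 and 0.524 in the 14 clusters, with a median of 0.401. In Mid_Ob it lay between 0.373 and 1 in 11 clusters, with a median of 0.653. In Ob it lay between 0.374 and 1.52 in 21 clusters, with a median of 1.01, and in 9 of them the interval lay wholly above 1. The adipocyte-like class showed 0.326 (0.286 to 0.371) in Ctrl, 0.644 (0.590 to 0.703) in Mid_Ob and 0.853 (0.819 to 0.888) in Ob. The macrophage-like class showed 0.433 (0.354 to 0.528), 0.653 (0.511 to 0.833) and 1.19 (1.12 to 1.26). The mesothelial-like class showed 0.267 (0.243 to 0.293), 0.384 (0.340 to 0.432) and 0.623 (0.568 to 0.682). The lymphocyte-like class showed 0.462 (0.272 to 0.762), 0.882 (0.578 to 1.34) and 1.21 (0.966 to 1.51). In each of these classes the intervals of Ctrl and Ob, which reflect counting error alone, did not overlap. How often other gene pairs shifted in this way was not counted. Haemoglobin RNA, foreign to these cells, also differed between libraries, at 0.00257% of the UMIs in the adipocyte-like cluster of Ctrl, 0.00124% in that of Mid_Ob and 0.0177% to 0.0457% in those of Ob, and its part in the ratios was not tested.

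The fibroblast or progenitor-like class, where both chains were high, showed 0.373 (0.329 to 0.421) in Mid_Ob and 0.387 (0.370 to 0.405) in Ob. These intervals overlapped. The ratio of the fibroblast-like clusters of Ob thus lay below that of its macrophage-like clusters, which lay between 0.994 and 1.52. In cluster 16 of Ob, where Col1a1 stood at 2198 CPM, the ratio was 1.30. Per cluster, the share of Ob clusters with the ratio above 1 was 11 of 21, and none of the 14 Ctrl clusters was above 1.

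**Figure D4:**
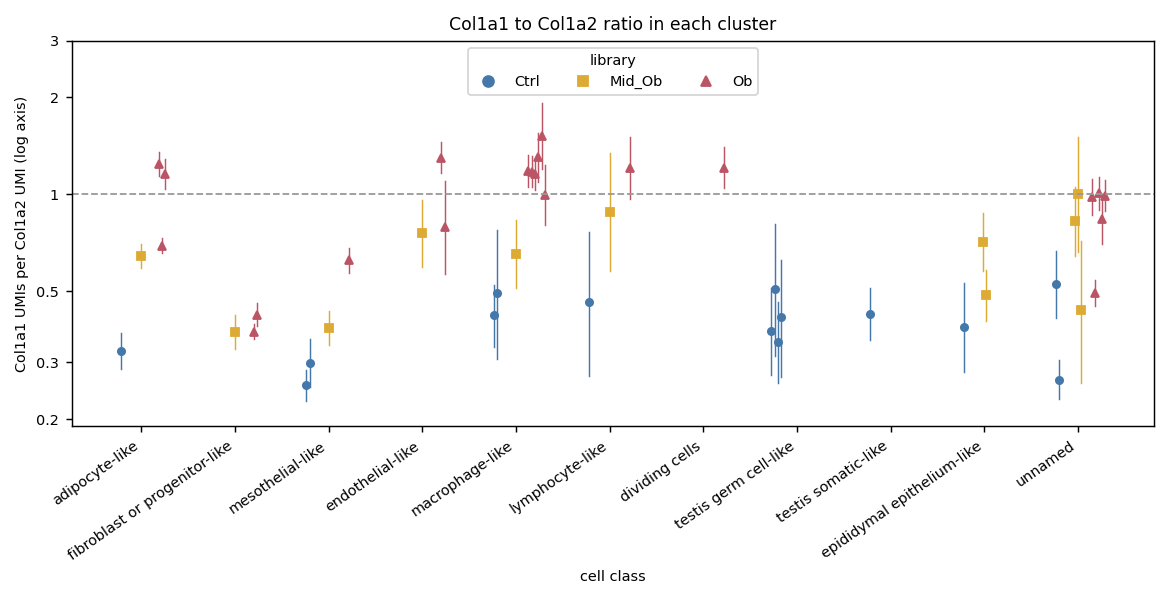
UMIs of Col1a1 per UMI of Col1a2 in each cluster, on a log axis, by cell class and library, with 95% counting intervals as bars. Points of Ob lie above those of Ctrl in the adipocyte, mesothelial, macrophage and lymphocyte columns, up to 1.52. The fibroblast or progenitor-like clusters of Mid_Ob and Ob lie between 0.373 and 0.422.

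The type IV pairs, with 1 promoter window of each shown above, moved together over clusters. The starts of Col4a1 and Col4a2 on chromosome 8 overlap by 22 bases, those of Col4a3 and Col4a4 on chromosome 1 lie 71 bases apart, and those of Col4a5 and Col4a6 on chromosome X lie 1308 bases apart. Over clusters with at least 50 UMIs in the pair, Spearman's rho of the CPM was 0.96 in 46 clusters for Col4a1 and Col4a2, 0.94 in 32 clusters for Col4a3 and Col4a4 and 0.90 in 39 clusters for Col4a5 and Col4a6. The clusters share 3 libraries and their mix of RNA, so these values are a description. Among pairs without a shared start, rho was 0.96 for Col6a1 and Col6a2 and 0.90 for Col1a1 and Col1a2. It was lower for Col6a5 and Col6a6, at 0.85, and for Col3a1 and Col5a2, at 0.80. A value of 0.90 or more was thus seen in some pairs without a shared start but not in all.

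The ratio within a pair was steadiest for Col4a1 over Col4a2, between 0.571 and 2.12, and Col4a1 had the larger count in 44 of 46 clusters. The lowest value came from unnamed cluster 11 of Mid_Ob, with 57.3 and 100 CPM. Col4a3 over Col4a4 lay between 0.238 and 1.55, and the highest value came from endothelial-like cluster 9 of Mid_Ob, at 262 and 168 CPM. Both minor chains were high in unnamed cluster 7 of Mid_Ob, at 296 and 462 CPM, and in unnamed cluster 17 of Ob, at 225 and 248 CPM. Col4a5 over Col4a6 lay between 1.01 and 13.4, and within each library it was lowest in a mesothelial-like cluster. The class stood at 1.05 (0.993 to 1.11) in Ctrl, 1.11 (1.02 to 1.20) in Mid_Ob and 1.31 (1.22 to 1.42) in Ob. Unnamed cluster 7 of Mid_Ob showed 77.1 CPM of Col4a5 and 7.01 CPM of Col4a6, the latter the lowest of the 11 clusters of that library.

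**Figure D5:**
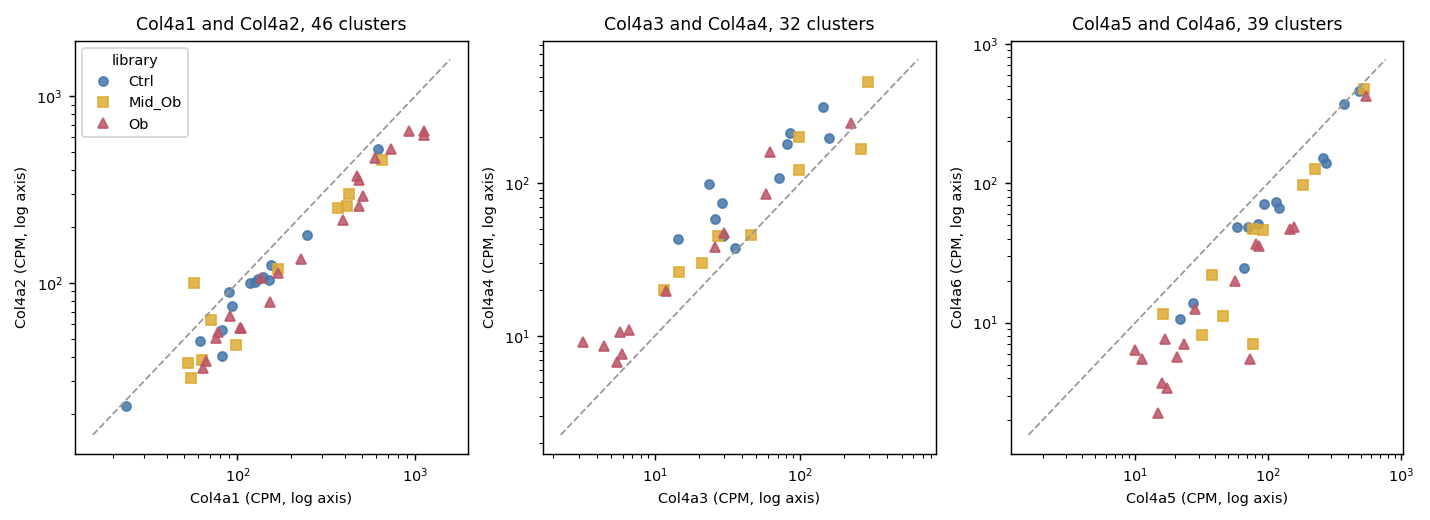
CPM of the 2 genes of each type IV pair, 1 point per cluster with at least 50 UMIs in the pair, on log axes, with a dashed line at equal levels. Points of Col4a1 and Col4a2 stay near the line, with ratios of 0.571 to 2.12, and those of Col4a5 and Col4a6 spread down to a ratio of 13.4.

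Collagen chains need partners that modify, trim and bind them, and 46 such genes in 4 lists were followed in the adipocyte-like clusters. Of 15 genes of chain modification and folding with enough counts 1 was higher and 2 were lower in Mid_Ob than in Ctrl, where 15.3% of all genes were higher and 20.2% lower. Serpinh1, the collagen chaperone, stood at 33.0 CPM in Ctrl and 79.2 in Mid_Ob, 2.40-fold higher (2.16 to 2.66), and Plod2, a lysyl hydroxylase, was 2.53-fold lower (2.26 to 2.84). Of 8 genes of propeptide removal 2 were higher and 3 lower. Adamts2, a procollagen protease, stood at 115 and 229 CPM, 1.99-fold higher (1.88 to 2.11), and Pcolce2, an enhancer of such cleavage, was 6.08-fold higher (5.04 to 7.4). Of 13 receptors and uptake genes 3 were higher and 3 lower, among them Mrc2, which takes up collagen, 3.01-fold higher (2.78 to 3.27), and Antxr2 1.59-fold lower (1.53 to 1.66). Of 7 fibril-binding genes 2 were higher and 2 lower, with Dcn 2.19-fold lower (2.04 to 2.35) and Bgn 2.20-fold higher (1.75 to 2.81).

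Between Ob and Mid_Ob the same clusters showed 3 genes of chain modification higher and 3 lower of 16, with Mia3, which loads collagen for export, 1.51-fold lower (1.44 to 1.59) and Plod1 1.51-fold higher (1.4 to 1.63). Over all genes 15.3% were higher and 19% lower. None of 8 genes of propeptide removal was higher and 3 were lower, Adamts2 by 1.55-fold (1.5 to 1.6) and Pcolce2 by 1.67-fold (1.56 to 1.79). Of 13 receptors 1 was higher and 3 were lower, Mrc2 by 1.70-fold (1.63 to 1.77) and the collagen receptor Ddr1 by 2.74-fold (2.61 to 2.87). Of 7 fibril-binding genes 2 were higher, Aspn by 2.90-fold (2.46 to 3.43) and Lum by 2.85-fold (2.32 to 3.53), and 1 was lower. For Adamts2, Pcolce2 and Mrc2 the level was highest in Mid_Ob, as it was for Col15a1, Col18a1 and Col6a3.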

How the data were processed

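Nuclei of pooled epididymal fat were sequenced on the 10x Genomics platform, 1 library per stage. The authors ran Cell Ranger; its version and genome build: not given in the sources used here. The signal columns are the deposited mean counts of each gene and cluster, UMIs divided by a summed size factor. The log2 columns are the authors' fold changes of a cluster over the rest, and the p-value columns are the deposited adjusted p-values of that contrast; neither was used.

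Whole UMI counts were recovered from the smallest step of each column, and 100% of values were whole within 0.001. Counts were summed per library or class and divided by the UMI total. Depth was 53980929, 57665213 and 111595518 UMIs. Ratios have conditional binomial intervals, shares exact binomial intervals (95%), and 3 counts replaced a 0. No count model or test was run, since there is 1 library per stage. The steps were tested on simulated data, where 100% of counts came back and intervals held the true ratio for 95.6%, 95.4% and 95.6% of genes in Mid_Ob over Ctrl, Ob over Mid_Ob and Ob over Ctrl.

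Clusters were named from 11 marker lists without collagens, where a marker counts at over 2-fold the median of other clusters with at least 10 counts. Genes named are the 12 chains with most UMIs, chains past 4-fold in a library comparison and, per partner list, the 2 most abundant past 1.5-fold; others were added to describe clusters, families and pairs after their values had been seen. Members and lists were chosen with earlier results of these data known. Gene spans and positions come from GENCODE M21 (GRCm38), matched by 99.8% of identifiers. Alternatives were other scaling, count minimums of 10 and 200, the interval in place of the ratio, and leaving out testis and epididymis, unnamed or single clusters. Python 3.11.15 with numpy 2.4.6, pandas 2.3.3, scipy 1.17.1 and matplotlib 3.10.9 was used. The study's methods name DoubletFinder for the removal of doublets; whether it was applied before these tables were made is not stated, and no doublet caller was run here, since the tables hold sums over clusters.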

Additional observations from a re-analysis of the deposited data

Results flagged for a closer look

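In Ob over Mid_Ob, Col14a1 went opposite ways in 2 cell classes, with a log2 ratio of 0.82 in adipocyte-like clusters and -0.75 in fibroblast or progenitor-like clusters. The first value turned to -0.70 without Ob cluster 5, and the second to -0.38, under 1.5-fold, without Ob cluster 19. Col27a1 showed a log2 ratio of 0.64 in fibroblast or progenitor-like clusters and -1.29 in macrophage-like clusters, where it had 48 UMIs in Ob and 19 in Mid_Ob. Each was noted because the ratios of the 2 classes passed 1.5-fold in opposite directions. The difference between classes was not tested, since each stage is 1 library.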

How the results depend on the processing

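No paired analysis was possible because each stage is 1 library and no test was made. Of 109 alternative values over 20 results, 84 stayed within 1.5 times the count or within the counting interval of the share, and 25 moved. The collagen share moved to 0.312% in Ctrl and 0.335% in Mid_Ob without testis and epididymis clusters, and to 0.230%, 0.268% and 0.334% in Ctrl, Mid_Ob and Ob without unnamed clusters. Chains higher in Ob over Ctrl went from 13 to 7 without testis and epididymis clusters. In adipocyte-like clusters, chains lower in Mid_Ob over Ctrl went from 13 to 7 and in Ob over Mid_Ob from 13 to 8 at a minimum of 200 counts, and those higher in Ob over Mid_Ob from 8 to 3 without Ob cluster 5. In macrophage-like clusters, chains higher in Mid_Ob over Ctrl went from 1 to 13 without Ctrl cluster 9, to 3 at 10 counts and to 0 at 200 counts, where the filter leaves fewer chains. Chains lower there went from 12 to 1 without Ctrl cluster 9, to 22 without Ctrl cluster 11, to 6 at 200 counts and to 7 where the whole interval had to pass. In Ob over Mid_Ob, chains higher went from 8 to 4 and chains lower from 11 to 5 with the whole interval, and to 2 lower at 200 counts. In fibroblast or progenitor-like clusters, chains higher went from 4 to 0 without Ob cluster 8, to 9 without Ob cluster 19 and to 2 with the whole interval, and chains lower from 7 to 14, to 3 and, at 10 counts, to 13. Fewer chains pass at 200 counts and more at 10, by construction, and for the other changes the cause was not tested.

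Scaling by the median of gene ratios changed no count past 1.5 times; it shifts the log2 ratios by the median of all genes, which over whole libraries is -0.16 (Mid_Ob over Ctrl) and -0.35 (Ob over Ctrl). Depth limits the rare chains, as 18 of 44 had fewer than 50 counts in the fibroblast or progenitor-like pair. With 1 pooled library per stage, no difference can be set against the spread between mice.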
